A study of Mus musculus with 63 samples.

Results

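The 4 pituitaries of the 6M-8W set from animals under CUMS (chronic unpredictable mild stress, in which mild stressors of changing kind are given in no fixed order) were compared with the 4 control pituitaries of the same set. These 8 libraries were chosen by their titles, out of 63 libraries of pituitary and ovary, 32 of them from pituitary. The animals were female C57BL/6 mice, given as 6 months old with a duration of 8 weeks, and no genotype, transgene or drug is named. These come from the titles, which cross both ages with both durations, whereas the series description can be read as pairing the younger age with the shorter stress and the older with the longer. The other pituitary sets, fitted in the same model, where they help set the filter and the spread, and used to test where the 6M-8W set differed, were 2M-8W (2 months, 8 weeks), 2M-12W (2 months, 12 weeks) and 6M-12W (6 months, 12 weeks), each with 4 CUMS and 4 control libraries of its own. Bulk RNA of the gland was sequenced, so each value is a mean over its cell types. The labels do not say whether the age is that at the start or at the end of stress, whether a library is 1 animal or a pool, in which estrous stage and at what hour glands were taken, or in which batches they were sequenced. If CUMS and control glands differed in any of these, that difference and the stress cannot be told apart. Nothing states that libraries came from separate animals, so p-values measure the spread between libraries, which may be technical in part.

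The anterior pituitary holds hormone-producing cell types, each driven by hypothalamic factors. Corticotropes make ACTH from the precursor encoded by Pomc when corticotropin-releasing hormone (CRH) and vasopressin reach them, ACTH makes the adrenal release glucocorticoids, and glucocorticoids act back on the gland through the glucocorticoid receptor. That receptor is a transcription factor that induces a known group of genes, among them its own regulator Fkbp5. The gland also has a circadian clock, in which the ARNTL protein with CLOCK or NPAS2 activates the Per genes, Dbp, Tef and Nr1d1, and the PER and NR1D proteins repress in return.

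Total counts were 15082012 to 22190587 in CUMS libraries and 16605430 to 17568812 in control libraries, and the mitochondrial share of counts was 2.88% to 3.59% against 2.81% to 3.18%. Markers were those of a female pituitary: Prl and Gh, the prolactin and growth hormone genes, were among the most abundant transcripts in all 8, and Xist was present, and of 4 Y-linked genes Ddx3y and Eif2s3y had 0 counts in all 8 and Uty and Kdm5d 1 count each, in 1 library each. CUMS library 1 held transcripts of brain and control library 3 held transcripts of secretory epithelium. Calls of these transcripts are given below with and without the library that held them. Hsd3b1 and Cyp11a1, genes of steroid synthesis, separated the arms and are described with them at the end.

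Of 17001 genes tested with edgeR's quasi-likelihood test, 799 (4.7%) passed an adjusted p of 0.05. CUMS pituitaries were higher in 391 (2.3%) and lower in 408 (2.4%). The 4 CUMS libraries did not overlap the 4 control libraries in 357 of the higher and 340 of the lower genes, and over all genes tested 1265 (7.44%) lay wholly above and 1061 (6.24%) wholly below. With the 8 libraries fitted alone 789 genes passed, 566 of them among the 799. Most folds were modest, since 90 genes were higher and 84 lower by at least 2 times. The median log2 fold of all genes tested was 0.01. The number called depended on single libraries: it was 455 without CUMS library 3, 436 without CUMS library 4 and 511 without control library 4. Without CUMS library 1 and control library 3 together it was 863 (334 higher, 529 lower).

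**Figure D1:**
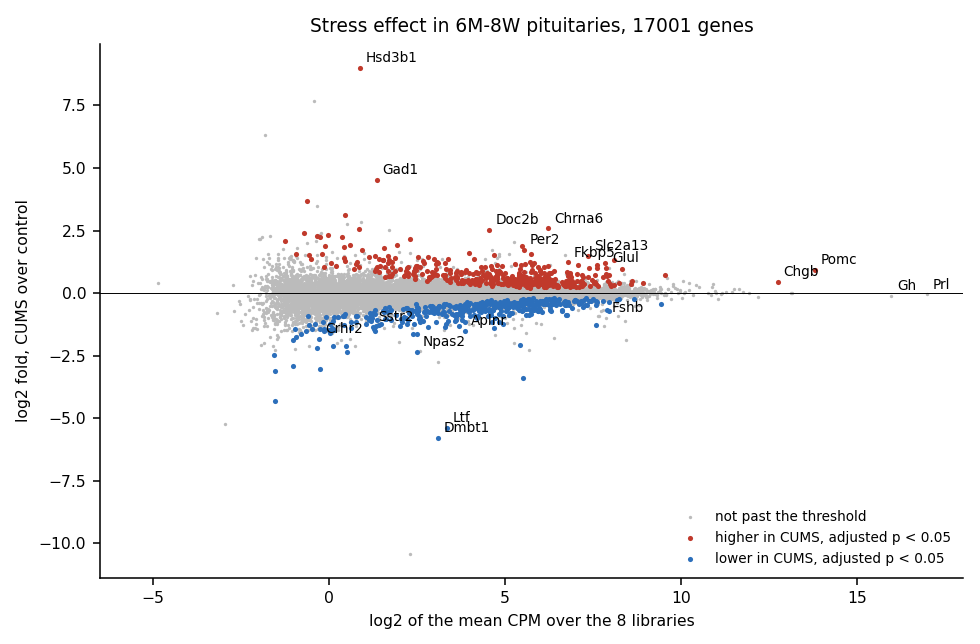
Each point is 1 of the 17001 genes tested, with the log2 fold of CUMS over control in 6M-8W pituitary on the vertical axis and the mean level (log2 CPM over the 8 libraries) on the horizontal axis; coloured points are the 391 genes higher and the 408 genes lower past an adjusted p of 0.05. Doc2b and Chrna6 stand above most genes of their level, and Hsd3b1, Gad1, Ltf and Dmbt1, which lie farthest out among called genes, are described last.

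Among corticotrope genes Pomc rose with Tbx19, the T-box factor that switches on Pomc, and with Crhbp, which encodes a protein that binds CRH. Levels throughout are CPM (counts scaled to a common depth) on TMM-scaled library totals. Pomc (ENSMUSG00000020660, chr12:3954951-3960618, plus strand, GRCm38) had 13226, 20709, 16375 and 24338 CPM in CUMS libraries 1 to 4, against 10797, 9277, 11552 and 7601 CPM in control libraries 1 to 4. Every CUMS library lay above every control library. The log2 fold was 0.93 ± 0.24 (SE, adjusted p = 0.0197). The call was lost without CUMS library 2 (adjusted p = 0.0585), CUMS library 4 (0.115), control library 2 (0.0611) or control library 4 (0.0927), and with the replicate number as a block (0.0502). Pomc is also made by melanotropes of the intermediate lobe, and in bulk tissue a change in the number of cells of a type and one in RNA per cell cannot be told apart.

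Tbx19 (chr1:165137855-165160773, minus strand) had 85.1, 99.3, 101 and 117 CPM in CUMS libraries, against 53.1, 64.5, 63.2 and 47.5 CPM in control libraries. The arms were well apart, with a log2 fold of 0.82 ± 0.14 (adjusted p = 0.000334), and the call held under all 17 alternatives. Crhbp had 437, 292, 371 and 459.8 CPM in CUMS libraries, against 55.6, 207, 254 and 113 CPM in control libraries, again without overlap but with a wide spread among controls. Its log2 fold was 1.31 ± 0.33 (adjusted p = 0.0169), and the call was lost without CUMS library 4 (0.0639), control library 1 (0.0608) or control library 4 (0.0764), and with the 8 libraries alone (0.0821). In the 12 CUMS pituitaries of the other sets Crhbp ranged over 115 to 281 CPM and in their 12 controls over 121 to 316 CPM. The Crhbp effect of the 6M-8W set minus the mean of the other 3 sets was 1.28 ± 0.38, which did not pass (adjusted p = 0.0851).

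Crhr1, the CRH receptor of corticotropes, had 19.4 to 26.0 CPM in CUMS libraries and 14.1 to 17.2 CPM in control libraries, without overlap, and narrowly missed the threshold (log2 fold 0.47 ± 0.14, adjusted p = 0.0519). It passed in 5 of 17 alternatives. Avpr1b, the vasopressin receptor of corticotropes, showed a log2 fold of 0.14 ± 0.19 (adjusted p = 0.77). Pcsk1, the convertase that cuts the Pomc product to ACTH, averaged 173 ± 24.8 CPM in CUMS and 136 ± 15.5 CPM in control libraries (SD, n = 4 each; log2 fold 0.35 ± 0.11, adjusted p = 0.0579). Of the 7 corticotrope markers 3 rose (5 with DESeq2 or limma-voom, which add Crhr1 and Pcsk1) and none fell, beside 2.3% higher and 2.4% lower over all genes. All 7 folds were above 0 with a median of 0.47, beside 8750 of 17001 folds above 0 over all genes. Of the 4 listed melanotrope markers, which also include Pomc, 1 rose, Pomc itself, and none fell. All 4 folds were above 0 (median 0.23). Pax7 (0.07, adjusted p = 0.897) and Pcsk2 (0.34, adjusted p = 0.346) did not pass. Which cell type gave the rise of Pomc was not tested.

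The other hormone genes did not pass. Prl averaged 126136 ± 7490.0 CPM in CUMS and 131042 ± 16726 CPM in control libraries (log2 fold -0.06 ± 0.12, adjusted p = 0.867). Gh averaged 60915 ± 6693 CPM in CUMS and 66187 ± 6187 CPM in control libraries (-0.12 ± 0.14, adjusted p = 0.733). Fshb, the follicle-stimulating hormone subunit, varied widely, with 278, 94.0, 96.3 and 149.5 CPM in CUMS libraries, against 287, 291, 74.1 and 576 CPM in control libraries (-0.99 ± 0.62, adjusted p = 0.436). The arms overlapped in all 3. None of the 7 gonadotrope, 4 lactotrope, 6 somatotrope or 5 thyrotrope markers passed in either direction with edgeR, DESeq2 or limma-voom, and 0 had an unadjusted p under 0.05 with edgeR. Nr3c1, the glucocorticoid receptor gene, averaged 71.8 ± 18.1 CPM in CUMS and 64.4 ± 20.2 CPM in control libraries (0.16 ± 0.24, adjusted p = 0.805).

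**Figure D2:**
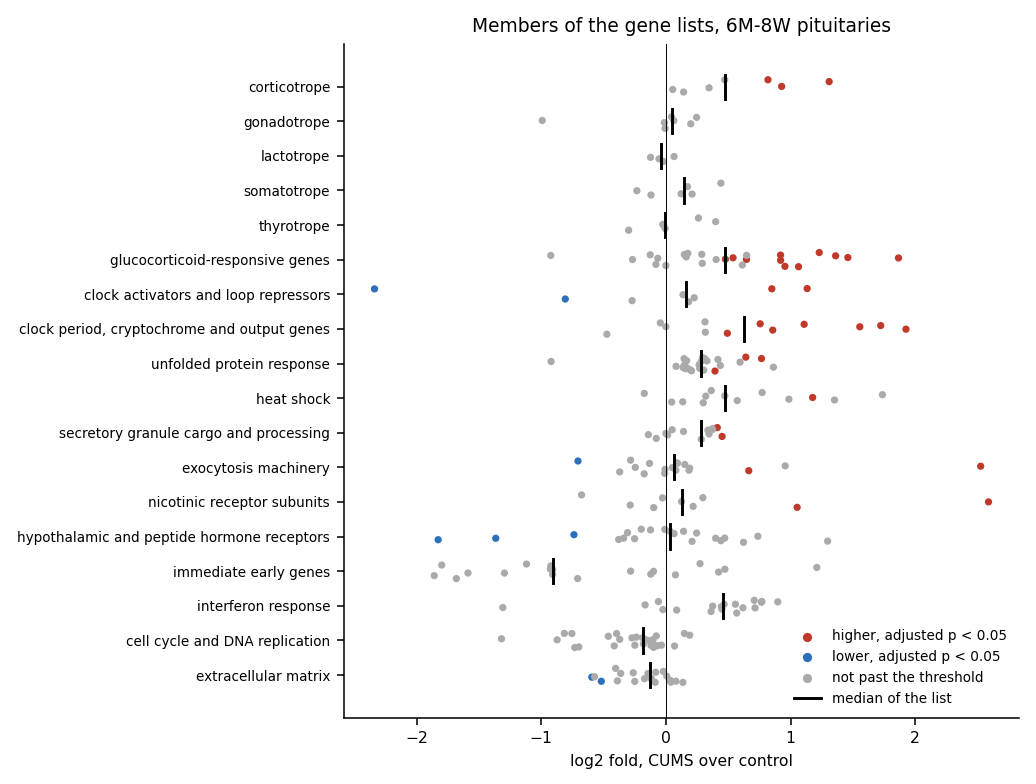
For each gene list the horizontal axis shows log2 folds of CUMS over control in 6M-8W pituitary, 1 point per member, with members past an adjusted p of 0.05 coloured and the list's median marked. The clock output, corticotrope and glucocorticoid lists have medians of 0.62, 0.47 and 0.48, and that of the immediate early genes is -0.91 with no member past the threshold.

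Of the 25 listed glucocorticoid-responsive genes 11 rose and none fell, beside 2.3% higher and 2.4% lower over all genes. All 4 CUMS libraries lay above all 4 control libraries in 13 of the 25, beside 7.44% of all genes, and the median log2 fold was 0.48. Under the 17 alternatives 9 to 12 members rose. Fkbp5 (chr17:28399095-28517524, minus strand), the co-chaperone that lowers the receptor's affinity for its hormone, had 139, 149.6, 143 and 183 CPM in CUMS libraries, against 67.7, 75.8, 53.8 and 64.5 CPM in control libraries. The lowest CUMS library was far above the highest control library (log2 fold 1.23 ± 0.14, adjusted p = 2.03e-06). The 12 CUMS pituitaries of the other sets ranged over 58.7 to 86.3 CPM and their 12 controls over 39.6 to 88.3 CPM, all below the 6M-8W CUMS libraries. Within sets, Fkbp5 was also higher in CUMS without overlap in 2M-12W (71.1 to 80.6 against 46.7 to 61.6 CPM). The same held in 6M-12W (58.7 to 67.8 against 39.6 to 49.5 CPM). In 2M-8W the arms overlapped, with control library 1 at 88.3 CPM. The effect in the 6M-8W set exceeded the mean of the other 3 sets by 0.83 ± 0.16 (adjusted p = 0.00627).

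Zbtb16 (chr9:48654311-48835945, minus strand), which encodes the zinc-finger repressor PLZF, had 61.6, 83.0, 62.4 and 73.4 CPM in CUMS libraries, against 29.5, 16.1, 16.5 and 14.7 CPM in control libraries. Control library 1 stood above the other controls, and still below every CUMS library. The log2 fold was 1.87 ± 0.29 (adjusted p = 0.000109), and it exceeded the other sets by 1.60 ± 0.33 (adjusted p = 0.0098). Tsc22d3, which encodes the anti-inflammatory protein GILZ, had 54.5, 56.7, 63.2 and 62.6 CPM in CUMS libraries, against 40.3, 37.2, 34.9 and 39.1 CPM in control libraries. The arms were apart (0.65 ± 0.14, adjusted p = 0.00512), and the difference from the other sets did not pass (0.39 ± 0.16, adjusted p = 0.264).

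Map3k6, a stress-activated kinase gene, rose by 1.46 ± 0.19 (adjusted p = 2.03e-05), with 7.11 to 11.4 CPM in CUMS and 2.74 to 3.44 CPM in control libraries. Klf15, a Krüppel-like factor of amino acid and glucose metabolism, rose by 1.06 ± 0.16 (adjusted p = 8.67e-05), with 32.2 to 49.5 CPM in CUMS and 18.3 to 22.2 CPM in control libraries. Hif3a, a hypoxia-inducible factor subunit, rose by 0.95 ± 0.14 (adjusted p = 5.70e-05), with 27.2 to 40.3 CPM in CUMS and 13.5 to 21.9 CPM in control libraries. All 3 exceeded the mean of the other sets, by 1.15 (adjusted p = 0.00776), 0.78 (0.025) and 0.66 (0.0299). Mt2, a metallothionein that binds zinc and copper, rose by 0.92 ± 0.13 (adjusted p = 5.70e-05), with 68.0 to 77.7 CPM in CUMS and 34.2 to 40.5 CPM in control libraries, and its difference from the other sets did not pass (0.48 ± 0.15, adjusted p = 0.117). The sulfotransferase gene Sult1a1 rose by 0.92 ± 0.17 (adjusted p = 0.00124). Pdk4, Sgk1 and Mt1 complete the 11 and were less stable. Sgk1 (0.54, adjusted p = 0.0115) was lost without control library 3 (0.0575) and without CUMS library 1 and control library 3 together (0.112). Mt1 (0.48, 0.0193) was lost without CUMS library 2 (0.074), control library 1 (0.0606) or control library 2 (0.0924), and with the replicate number as a block. Pdk4 (1.36, 0.0317) was lost without CUMS library 1, 2 or 3 or control library 2, 3 or 4 (adjusted p 0.0547 to 0.115). It was also lost with the 8 libraries alone and without CUMS library 1 and control library 3 together (adjusted p up to 0.211).

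Promoter windows show where letters of a receptor or clock motif lie upstream of genes called here. Sequences are RefSeq promoters on GRCm38.p6, from 250 bases before to 50 after the start of the gene, and of 65 named genes looked up 46 had one. Motif letters are in capitals. The glucocorticoid response element was searched as ACANNNTGT and the E-box bound by the clock activators as CACGTG, on both strands. A loose form of the metal response element was searched as TGCNCNC and an element of the unfolded protein response as TGACGTGG, also on both strands. Among genes looked up that had a window, ACANNNTGT was found in 1 of 4 on the glucocorticoid list and CACGTG in 2 of 7 on the clock lists. TGCNCNC was found in Mt2, and TGACGTGG in 0 of 3. The 7 include Npas2 and Arntl, which fell. Other called genes of these lists, such as Zbtb16 and Per2, had no window or were not looked up. Over 32851 promoter windows the shares were 6.85%, 7.15%, 51.0% and 0.676%. A match is a description of letters and no site.
Map3k6 (chr4:133240568-133240867, plus strand, ACANNNTGT): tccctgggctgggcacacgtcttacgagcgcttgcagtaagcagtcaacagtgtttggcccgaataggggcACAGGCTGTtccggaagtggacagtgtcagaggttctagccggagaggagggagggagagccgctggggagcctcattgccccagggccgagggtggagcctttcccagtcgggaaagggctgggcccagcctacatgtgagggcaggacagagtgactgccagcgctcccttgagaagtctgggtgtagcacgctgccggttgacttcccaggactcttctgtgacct
Mt2 (chr8:94172368-94172667, plus strand, TGCNCNC on either strand): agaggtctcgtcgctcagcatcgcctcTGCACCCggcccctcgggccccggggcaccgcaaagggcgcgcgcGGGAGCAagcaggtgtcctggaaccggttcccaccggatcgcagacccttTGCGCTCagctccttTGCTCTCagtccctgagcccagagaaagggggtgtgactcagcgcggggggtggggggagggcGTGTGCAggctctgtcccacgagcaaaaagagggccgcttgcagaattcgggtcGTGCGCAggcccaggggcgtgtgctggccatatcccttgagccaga
Tef (chr15:81802423-81802722, plus strand, CACGTG): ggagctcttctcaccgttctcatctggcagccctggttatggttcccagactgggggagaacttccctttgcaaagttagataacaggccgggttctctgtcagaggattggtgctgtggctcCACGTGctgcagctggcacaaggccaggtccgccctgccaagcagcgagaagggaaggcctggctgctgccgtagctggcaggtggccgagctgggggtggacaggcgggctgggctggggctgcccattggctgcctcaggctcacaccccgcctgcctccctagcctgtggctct
Ciart (chr3:95882179-95882478, minus strand, CACGTG): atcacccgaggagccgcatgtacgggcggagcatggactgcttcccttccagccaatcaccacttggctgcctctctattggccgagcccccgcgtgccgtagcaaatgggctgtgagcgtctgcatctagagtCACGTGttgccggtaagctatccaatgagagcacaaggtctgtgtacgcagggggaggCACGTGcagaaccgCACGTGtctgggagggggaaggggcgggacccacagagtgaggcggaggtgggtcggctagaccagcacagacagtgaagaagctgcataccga

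Of the 12 listed period, cryptochrome and output genes of the clock 7 rose, none fell and 5 did not pass (median log2 fold 0.62). Of the 8 activators and loop repressors 2 rose, 2 fell and 4 did not pass. The counts of both lists stand beside 2.3% higher and 2.4% lower over all genes. No test compared the roles. Per2 (chr1:91415982-91459324, minus strand), a repressor of the core loop, had 59.3, 51.2, 87.6 and 85.2 CPM in CUMS libraries, against 22.1, 23.2, 20.8 and 19.8 CPM in control libraries. The controls were tight and all below the CUMS libraries (log2 fold 1.72 ± 0.17, adjusted p = 2.62e-07). Dbp, an output transcription factor, had 89.6, 82.0, 69.7 and 76.9 CPM in CUMS libraries, against 33.6, 25.5, 18.3 and 30.7 CPM in control libraries (1.56 ± 0.21, adjusted p = 1.96e-05). Ciart, which encodes a repressor of the activator complex and holds 3 copies of CACGTG in its printed window, had 5.38, 5.6, 7.21 and 6.11 CPM in CUMS libraries, against 1.5, 1.62, 1.19 and 2.09 CPM in control libraries (1.93 ± 0.26, adjusted p = 3.20e-05). Neither gene's arms overlapped.

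On the activating side Npas2 (chr1:39193731-39363236, plus strand), a partner of ARNTL, had 2.26, 1.70, 1.61 and 1.93 CPM in CUMS libraries, against 8.26, 10.6, 9.67 and 9.30 CPM in control libraries. It was the lowest fold among the well measured genes whose arms did not overlap (-2.34 ± 0.24, adjusted p = 3.46e-07). Arntl itself had 18.4, 27.2, 27.3 and 29.4 CPM in CUMS libraries, against 45.4, 43.4, 49.9 and 40.8 CPM in control libraries, and fell with no overlap (-0.81 ± 0.12, adjusted p = 5.35e-05). Nr1d1 and Nr1d2, which encode the REV-ERB repressors of Arntl, rose by 0.85 ± 0.14 (adjusted p = 0.000186) and 1.13 ± 0.10 (adjusted p = 5.64e-08). Tef, Bhlhe41 and Per3 rose by 1.11, 0.86 and 0.76 (adjusted p = 6.81e-06, 4.70e-05 and 0.00356). Cry2 rose by 0.49 (adjusted p = 0.0243) and was lost without CUMS library 3 (0.0962), CUMS library 4 (0.0931), control library 3 (0.087) or control library 4 (0.0698). It was also lost without CUMS library 1 and control library 3 together. Per1, which is on both the glucocorticoid and the clock list, averaged 115 ± 14.9 CPM in CUMS and 115 ± 19.5 CPM in control libraries. Clock averaged 64.2 ± 15.6 CPM in CUMS and 77.5 ± 14.7 CPM in control libraries (-0.27 ± 0.19, adjusted p = 0.505).

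Of the genes called in the 6M-8W pituitary, 14 were called in all 4 pituitary sets, which share no library. They were Nr1d2, Glul, Per2, Npas2, Aplnr, Tef, Mettl7a1, Dbp, Ciart, Bhlhe41, Arntl, Leo1, Rasd2 and Per3, 9 of them on the clock lists. Against the mean of the other sets no clock gene named here differed past the threshold: Per2 by 0.60 ± 0.19 (adjusted p = 0.12), Arntl by 0.48 ± 0.13 (0.0623) and Npas2 by -0.20 ± 0.28 (0.812). Nr1d1 did differ from the 6M-12W set alone, by 0.99 ± 0.19 (adjusted p = 0.0131). In pituitaries of the 6M-8W set 4.7% of all genes tested were called. In ovaries of the 6M-8W set 199 of 17766 genes (1.12%) passed, and 15 genes were called in both tissues, an overlap that was not tested. Per2 rose there by 1.24 ± 0.24 (adjusted p = 0.0209), Per3 by 1.02 ± 0.16 (0.00359), Nr1d2 by 0.76 ± 0.12 (0.00359) and Tef by 0.60 ± 0.13 (0.035). Fkbp5 averaged 802 ± 186 CPM in CUMS and 779 ± 105 CPM in control ovaries (0.04 ± 0.29, adjusted p = 0.965). The hour at which glands were taken is not given, and its part in the clock values was not tested.

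**Figure D3:**
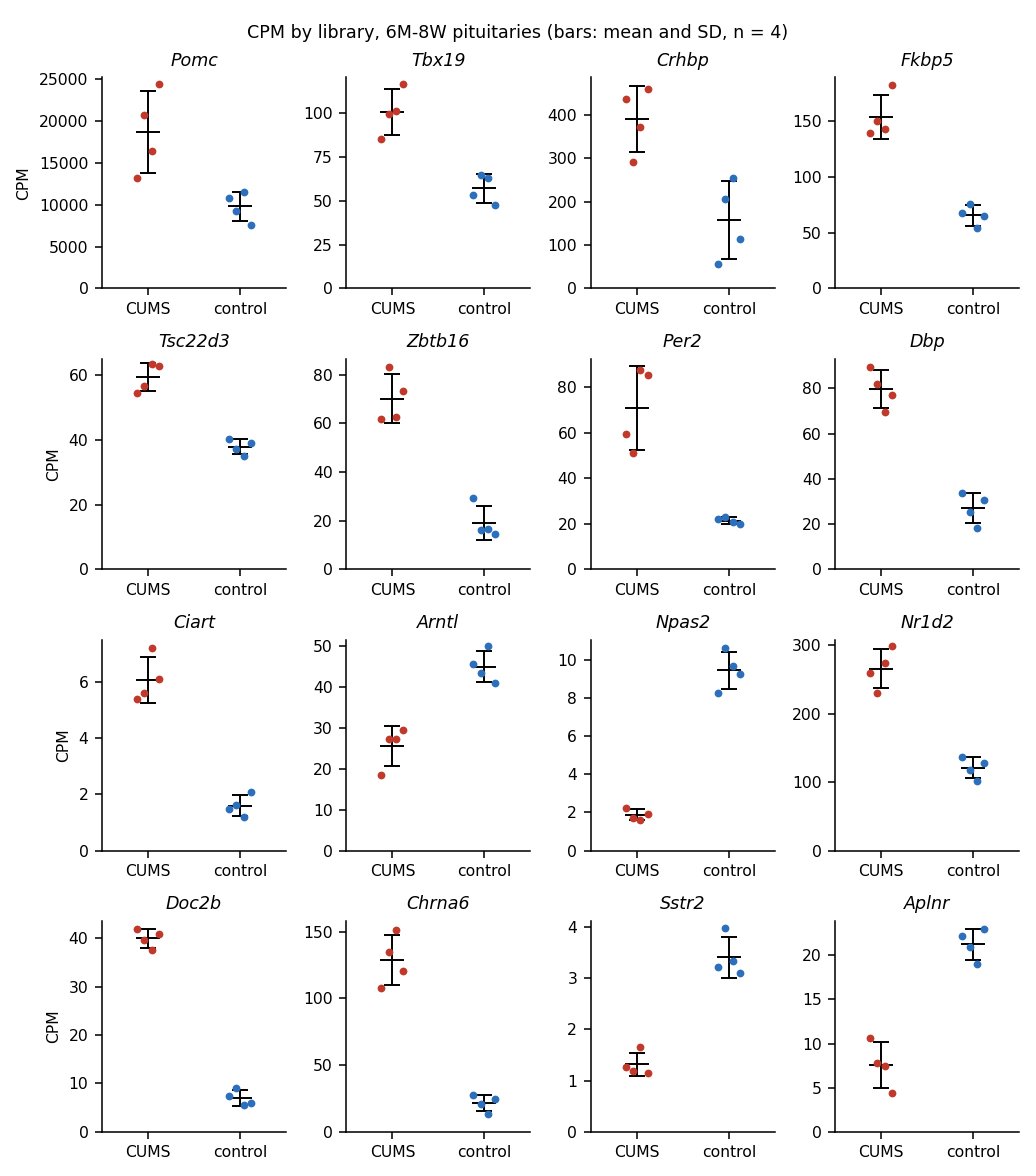
CPM of 16 genes in each of the 4 CUMS (left) and 4 control (right) pituitaries of the 6M-8W set, each panel with its own linear axis, and bars giving mean ± SD. In Fkbp5, Zbtb16, Per2, Dbp, Npas2, Doc2b, Chrna6 and Aplnr the arms are far apart, and Crhbp has a wide control spread of 55.6 to 254 CPM.

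The smallest p over all genes tested was that of Doc2b. Doc2b (chr11:75768966-75796049, minus strand), a calcium sensor of vesicle release, had 41.8, 39.7, 37.5 and 40.8 CPM in CUMS libraries, against 7.43, 8.95, 5.43 and 5.90 CPM in control libraries. Both arms were tight and lay far from each other (log2 fold 2.52 ± 0.22, adjusted p = 3.80e-08). In each of the other sets Doc2b was also higher in CUMS without overlap, at lower levels. CUMS and control libraries had 14.5 to 27.0 and 6.30 to 13.4 CPM in 2M-8W, and 15.5 to 23.7 and 6.54 to 11.3 CPM in 2M-12W. In 6M-12W they had 12.1 to 15.2 and 8.75 to 11.6 CPM. The effect in the 6M-8W set exceeded the mean of the other sets by 1.82 ± 0.25 (adjusted p = 0.000127). Of the 18 listed genes of the exocytosis machinery 2 rose and 1 fell, beside 2.3% higher and 2.4% lower over all genes. Syt1, the calcium sensor of fast release, averaged 289.8 ± 34.3 CPM in CUMS and 183 ± 18.5 CPM in control libraries (0.66 ± 0.11, adjusted p = 0.000455). Cplx2, a complexin that binds the assembled release complex, averaged 189 ± 36.2 CPM in CUMS and 308 ± 21.2 CPM in control libraries (-0.71 ± 0.12, adjusted p = 0.000295). Both differed from the other sets, by 0.55 (adjusted p = 0.028) and -0.60 (0.019). Among 13 genes of granule cargo and processing 2 rose, again beside 2.3% of all genes, and 6 rose with limma-voom and 3 with DESeq2. The 2 were Pam, which amidates peptide hormones (0.41 ± 0.08, adjusted p = 0.00283), and the granin Chgb (0.45 ± 0.13, 0.0364). Chgb was lost without CUMS library 2, 3 or 4 or control library 1, 3 or 4 (adjusted p 0.0899 to 0.115). It was also lost with the replicate number as a block and without CUMS library 1 and control library 3 together.

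Chrna6 (chr8:27403214-27413944, minus strand), a nicotinic acetylcholine receptor subunit, had 108, 135, 152 and 121 CPM in CUMS libraries, against 27.7, 20.4, 13.2 and 24.3 CPM in control libraries. The arms did not overlap (2.59 ± 0.45, adjusted p = 0.000561), but the 12 CUMS libraries of the other sets ranged over 19.7 to 109 CPM and their controls over 6.56 to 106 CPM. The difference from the other sets was 2.33 ± 0.51 (adjusted p = 0.0155). Of the 9 nicotinic subunits tested 2 rose, beside 2.3% of all genes, the other being Chrnb3, with 60.4 to 94.3 CPM in CUMS and 27.6 to 47.7 CPM in control libraries (1.05 ± 0.29, adjusted p = 0.0311). Chrnb3 was lost without CUMS library 1, 2 or 3 or control library 2, 3 or 4 (adjusted p 0.0552 to 0.111). It was also lost without CUMS library 1 and control library 3 together (0.156).

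Slc2a13 (chr15:91267696-91573261, minus strand), a myo-inositol transporter, had 167, 237, 297 and 268 CPM in CUMS libraries, against 94.4, 91.6, 64.8 and 91.5 CPM in control libraries. No library overlapped (1.5 ± 0.18, adjusted p = 4.16e-06). Cabp1, a neuronal calcium-binding protein gene, had 29.3 to 42.3 CPM in CUMS and 14.8 to 20.2 CPM in control libraries (1.12 ± 0.12, adjusted p = 8.00e-07). Cidea, a lipid droplet protein gene, had 23.3 to 33.2 CPM in CUMS and 12.6 to 13.4 CPM in control libraries (1.06 ± 0.12, adjusted p = 2.54e-06). In each of the 3 genes the 4 CUMS libraries lay above all 12 CUMS libraries of the other sets, and the differences from those sets were 1.48, 1.11 and 1.18 (adjusted p = 0.000156, 4.08e-05 and 4.08e-05). Glul, glutamine synthetase, averaged 312 ± 18.2 CPM in CUMS and 156 ± 6.15 CPM in control libraries (1.0 ± 0.09, adjusted p = 7.96e-08), and it was called in every pituitary set while exceeding the others by 0.57 ± 0.11 (adjusted p = 0.00542). Tspan4, a tetraspanin gene, rose by 1.29 ± 0.15 (adjusted p = 3.10e-06), Nwd2 by 2.16 ± 0.33 (0.000105) and Depdc7 by 1.59 ± 0.26 (0.000296). Thrb, a thyroid hormone receptor gene, averaged 259.8 ± 36.6 CPM in CUMS and 129 ± 9.65 CPM in control libraries (1.01 ± 0.18, adjusted p = 0.00095), and exceeded the other sets by 1.17 ± 0.21 (0.00403).

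Among the genes that fell were receptors of signalling peptides. Aplnr (chr2:85136225-85139923, plus strand), the apelin receptor, had 10.6, 7.74, 7.50 and 4.36 CPM in CUMS libraries, against 22.2, 20.9, 19.0 and 23.0 CPM in control libraries. It fell with no overlap (-1.5 ± 0.17, adjusted p = 2.17e-06). Sstr2 (chr11:113619342-113626028, plus strand), a somatostatin receptor that restrains hormone release, had 1.26, 1.20, 1.66 and 1.15 CPM in CUMS libraries, against 3.21, 3.99, 3.34 and 3.10 CPM in control libraries. The level was low but the arms were apart (-1.37 ± 0.25, adjusted p = 0.000914). The list of hypothalamic and peptide hormone receptors did not fall as a whole, with 11 of 21 folds above 0 (median 0.03). Of the 21 tested none rose and 3 fell, beside 2.3% higher and 2.4% lower over all genes. The others were the somatostatin receptor gene Sstr5 (-0.74 ± 0.20, adjusted p = 0.0283) and Crhr2, a receptor for CRH-family peptides (-1.83 ± 0.53, 0.0388), at 0.0629 to 0.665 CPM in CUMS and 0.998 to 1.61 CPM in control libraries. Sstr5 was lost without CUMS library 2, 3 or 4 or control library 1, 3 or 4 (adjusted p 0.05 to 0.0916), and Crhr2 without CUMS library 2, 3 or 4 or any control library (0.052 to 0.117). Sstr5 was also lost without CUMS library 1 and control library 3 together (0.101), and Crhr2 without a filter on low counts. With DESeq2 1 of the 21 receptors was higher, Crhr1, and 3 were lower. With limma-voom 1 was higher, again Crhr1, and 4 were lower.

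Rgs8, which switches off G-protein signals, had 11.4 to 19.3 CPM in CUMS and 32.5 to 39.8 CPM in control libraries (-1.38 ± 0.20, adjusted p = 6.92e-05). Pla2g2c, a secreted phospholipase gene, had 1.61 to 2.79 CPM in CUMS and 5.42 to 6.03 CPM in control libraries (-1.32 ± 0.18, adjusted p = 4.23e-05). Both effects differed from the mean of the other sets, by -1.18 (adjusted p = 0.00825) and -1.52 (0.000185). Other low folds were those of Rasl11a (-1.42), Tmem132d (-1.37), Smco2 (-1.37) and Rab38 (-1.33), whose differences from the other sets did not pass (adjusted p = 0.544, 0.0656, 0.382 and 0.0667). Of the 20 extracellular matrix genes 2 fell, Col4a1 (-0.59 ± 0.13, adjusted p = 0.00513) and Col4a2 (-0.52 ± 0.11, 0.0054), which encode the main collagen of basement membranes. With limma-voom, or at an unadjusted p under 0.05 with edgeR, 6 of the 20 were lower. The desaturase gene Scd3 fell (-0.94 ± 0.21, adjusted p = 0.0052) and was the 1 called of 10 fatty acid synthesis genes, of which 3 were lower with limma-voom and 5 at an unadjusted p under 0.05 with edgeR. Both counts stand beside 2.4% of all genes lower.

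Few genes passed a test of the difference between sets. Against the 2M-8W set 31 genes (0.182%) differed in stress effect, 22 upward (0.129%) and 9 downward (0.0529%). Against the 6M-12W set 61 (0.359%) differed, 41 upward (0.241%) and 20 downward (0.118%). Against the mean of the other 3 sets 233 (1.37%) differed, 144 upward (0.847%) and 89 downward (0.523%). In 100 of the 233 genes (42.9%) the 4 CUMS libraries of the 6M-8W set all lay outside the range of the 12 CUMS libraries of the other sets, and in 4 (1.72%) the 4 controls lay outside the range of the other 12 controls. Over all genes tested these numbers were 338 (1.99%) and 26 (0.153%). The 233 were chosen by the same values, so their 2 shares are a description. Counts of this kind moved with single libraries: against the other 3 sets, 84 genes differed without CUMS library 3, 92 without CUMS library 4 and 397 without CUMS library 1. Without control library 1, 2 or 4 the count was 135 to 143. The excess of upward calls depended on the setting. Against the other 3 sets 186 were upward and 211 downward without CUMS library 1, 85 and 91 without control library 3, 136 and 197 without both, and 473 and 555 with limma-voom. Against the 2M-8W set 39 were upward and 46 downward without both libraries, and 108 and 126 with limma-voom.

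**Figure D4:**
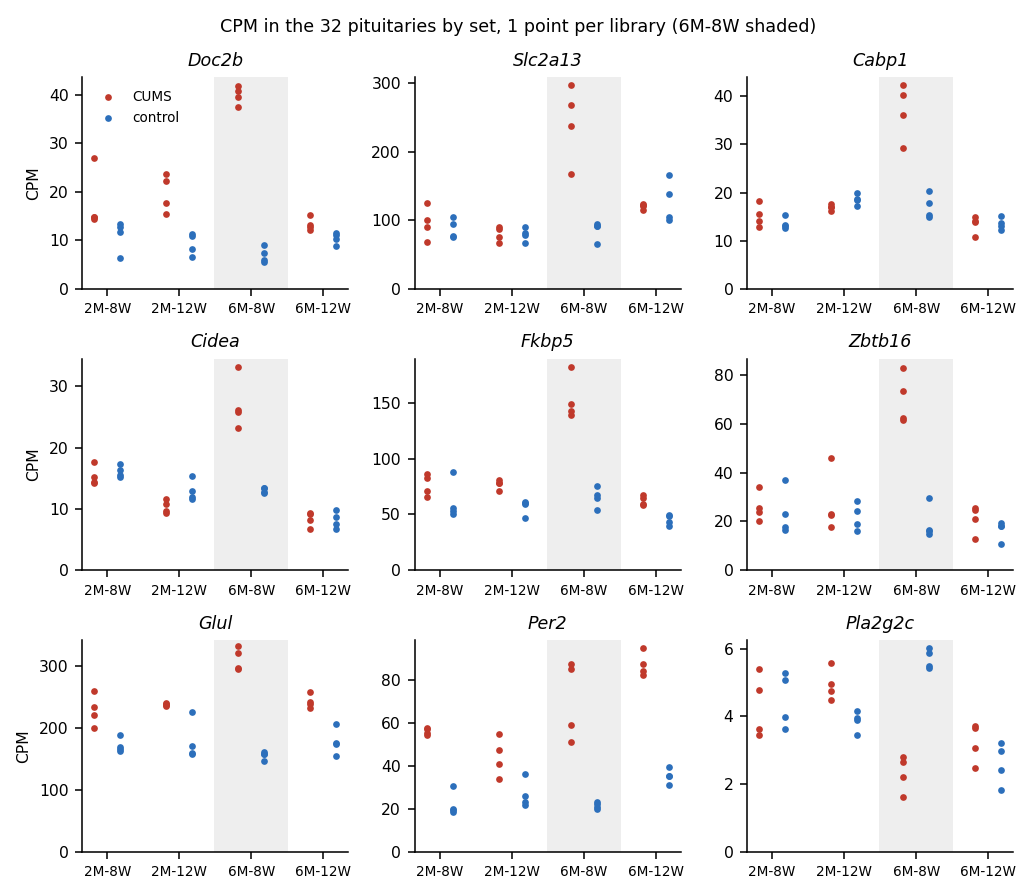
CPM of 9 genes in all 32 pituitary libraries, by set, with the 4 CUMS libraries left of the 4 controls in each set. For Doc2b, Slc2a13, Cabp1, Cidea, Fkbp5 and Zbtb16 the 6M-8W CUMS libraries stand above every other group. Doc2b and Glul are higher in the CUMS than in the control libraries of each set. Per2 is so in all sets but 2M-12W, where CUMS library 2 has 34.0 CPM and control library 1 has 36.3 CPM. Pla2g2c has 1.61 to 2.79 CPM in 6M-8W CUMS and 5.42 to 6.03 CPM in 6M-8W control libraries.

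Some of the genes that differed most between sets have other functions. Atp2a1, a calcium pump gene, fell in the 6M-8W set (-0.88 ± 0.17, adjusted p = 0.00172), with 2.26 to 3.19 CPM in CUMS and 3.40 to 6.48 CPM in control libraries. With the 8 libraries alone it narrowly missed the threshold (adjusted p = 0.0514). In the other sets it ranged over 3.15 to 6.83 CPM in CUMS and 1.75 to 4.88 CPM in control libraries, and the difference from them was -1.60 ± 0.20 (adjusted p = 4.08e-05). Scn11a, a sodium channel gene, and the corepressor gene Rcor2 also fell (log2 folds -1.24 ± 0.18 and -1.08 ± 0.16) and differed from the other sets by -1.13 (adjusted p = 0.00507) and -1.07 (0.00311). Eprs and Srxn1 were chosen after their values were seen. Eprs, which encodes a bifunctional tRNA synthetase, had 385, 397, 451 and 438 CPM in CUMS libraries, against 197, 221, 248 and 193 CPM in control libraries (0.96 ± 0.12, adjusted p = 7.56e-06; difference from the other sets 1.02, adjusted p = 0.000127). Srxn1, the antioxidant enzyme sulfiredoxin and a target of the factor NRF2, had 271, 269, 331 and 412 CPM in CUMS libraries, against 121, 144, 181 and 112 CPM in control libraries (1.20 ± 0.15, adjusted p = 7.56e-06; difference 1.20, adjusted p = 0.000218). In both genes the arms were well apart. With edgeR 2 of 20 tRNA synthetase genes and 1 of 19 NRF2 targets rose and none fell, beside 2.3% higher over all genes. Both lists were added after seeing the data, and their counts include Eprs and Srxn1, so they are a description. With limma-voom 5 synthetase genes were higher and 0 lower, and 2 NRF2 targets were higher and 3 lower. Folds were above 0 in 16 of the 20 synthetase genes and 12 of the 19 NRF2 targets.

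The unfolded protein response list was mostly above 0 with few calls. Of its 24 genes 23 had a fold above 0 (median 0.28), and 3 rose, beside 2.3% of all genes. Herpud1, a part of the machinery that degrades misfolded proteins, averaged 181 ± 29.2 CPM in CUMS and 116 ± 9.19 CPM in control libraries (0.64 ± 0.09, adjusted p = 4.23e-05). Dnajb9, a chaperone of the endoplasmic reticulum, rose by 0.77 ± 0.20 (adjusted p = 0.0243) and was lost without CUMS library 3 (0.0684), CUMS library 4 (0.14) or control library 2 (0.0522), 3 (0.0658) or 4 (0.0673). Ddit3, a stress-induced transcription factor, rose by 0.39 ± 0.11 (adjusted p = 0.0368) and was lost without CUMS library 3 (0.101) or 4 (0.217) or control library 1 (0.0511), 2 (0.147) or 3 (0.103). It was also lost without a filter on low counts, with the 8 libraries alone and without CUMS library 1 and control library 3 together. The number of members called ran over 1 to 13 among the alternatives.

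Some genes separated CUMS libraries 3 and 4 from CUMS libraries 1 and 2. Hspb1, a small heat shock protein, had 23.8, 27.1, 67.4 and 96.4 CPM in CUMS libraries, against 22.1, 25.6, 19.9 and 27.7 CPM in control libraries. Libraries 1 and 2 lay within the control range, so the fold of 1.18 ± 0.29 (adjusted p = 0.015) rested on libraries 3 and 4. The call was lost without CUMS library 3 (0.0714), CUMS library 4 (0.179), control library 1 (0.0505) or control library 3 (0.0528). It was also lost with the replicate number as a block and with the 8 libraries alone. Hspb1 was the 1 heat shock gene of 13 called with edgeR, beside 2.3% higher over all genes, but 12 of the 13 folds were above 0 (median 0.47). With limma-voom 10 of the 13 were higher, with DESeq2 2, and 10 at an unadjusted p under 0.05 with edgeR. In none of the 13 did all CUMS libraries lie above all control libraries, beside 7.44% of all genes. Hsph1, a co-chaperone, was chosen after its values were seen and had 169, 183, 421 and 535 CPM in CUMS libraries, against 159, 212, 131 and 159 CPM in control libraries (0.99 ± 0.32, adjusted p = 0.0765). Hsp90aa1, the inducible HSP90 and likewise chosen, had 231, 238, 459.6 and 742 CPM in CUMS libraries, against 256, 253, 267 and 202 CPM in control libraries (0.77 ± 0.23, adjusted p = 0.0507). Ncapg2, a condensin subunit, had 15.1, 15.3, 63.4 and 58.9 CPM in CUMS libraries, against 13.3, 14.5, 12.7 and 13.1 CPM in control libraries. Its call (1.52 ± 0.36, adjusted p = 0.011) was lost without CUMS library 3 (0.0913) or 4 (0.0791), with the replicate number as a block and with the 8 libraries alone. Kif18a, a mitotic kinesin, had 8.18, 7.11, 16 and 14.1 CPM in CUMS libraries, against 4.99, 4.33, 3.94 and 4.29 CPM in control libraries, with all CUMS libraries above the controls (1.38 ± 0.32, adjusted p = 0.00972), and was lost without CUMS library 3 (0.0612). None of the 28 listed cell cycle genes passed with edgeR, 1 was lower at an unadjusted p under 0.05 and 1 was lower past the threshold with DESeq2 and with limma-voom. Of the 28, 3 had a fold above 0, and in 1 of the 28 all CUMS libraries lay below all control libraries, as in 6.24% of all genes.

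Immediate early genes, induced within minutes of a stimulus, varied among controls. None of 20 passed with edgeR, DESeq2 or limma-voom, 1 was higher and 3 were lower at an unadjusted p under 0.05 with edgeR, and the median log2 fold was -0.91. Nr4a1, an orphan nuclear receptor gene chosen after its values were seen, had 203, 98.5, 87.3 and 207 CPM in CUMS libraries, against 198, 835, 874 and 255 CPM in control libraries, so control libraries 2 and 3 stood above all others (-1.86 ± 0.77, adjusted p = 0.187). None of 18 interferon-response genes passed with edgeR, DESeq2 or limma-voom (median 0.46), and 4 were higher and 1 lower at an unadjusted p under 0.05 with edgeR. Ifit3, chosen likewise, had 11.7, 20.3, 21.8 and 62.3 CPM in CUMS libraries, against 13.5, 15.4, 8.65 and 25.2 CPM in control libraries, with its highest value in CUMS library 4 (0.90 ± 0.39, adjusted p = 0.216).

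Markers of other cells moved in part with stress. The summed level of 7 stem and folliculostellate markers was 380.0 to 437 CPM in CUMS and 289 to 304 CPM in control libraries, and 1 of the 7 rose, the cytochrome gene Cyp2f2 (0.65 ± 0.09, adjusted p = 6.11e-05). Summed endothelial markers were 424 to 521 CPM in CUMS and 461 to 517 CPM in control libraries, and macrophage markers 189 to 245 CPM in CUMS and 206 to 229 CPM in control libraries. Single members of these lists passed. Of 10 endothelial genes Flt1, a receptor of vascular growth factors, rose (0.39 ± 0.10, adjusted p = 0.0186), and 4 others were lower with limma-voom. Of 13 macrophage genes the fractalkine receptor gene Cx3cr1 fell, with 8.50 to 11.6 CPM in CUMS and 15.1 to 16.1 CPM in control libraries (-0.61 ± 0.16, adjusted p = 0.0219). Of 7 mural cell and fibroblast genes tested Pdgfrb, a growth factor receptor of pericytes, fell (-0.35 ± 0.09, adjusted p = 0.0225). Of 7 neutrophil and lymphocyte genes tested, with a median log2 fold of -1.12, Ighm, the immunoglobulin M heavy chain gene, fell (-1.12 ± 0.34, adjusted p = 0.0499), and without control library 3 it did not pass (adjusted p = 0.26). These 4 calls were each lost under 3 to 10 of 17 alternatives. Flt1 and Ighm were among those lost without CUMS library 1 and control library 3 together. Counts of called markers stand beside 2.3% higher and 2.4% lower over all genes. Sums of the 5 red blood cell genes were 207 to 297 CPM in CUMS and 142 to 222 CPM in control libraries, with no member past the threshold in edgeR, DESeq2 or limma-voom and 0 at an unadjusted p under 0.05. Posterior lobe markers summed to 58.7 to 135 CPM in CUMS and 96.3 to 122 CPM in control libraries. The part of these cells in the folds above was not tested.

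Transcripts of other tissues were found in single libraries. Gad1, a marker of inhibitory neurons, had 18.9, 0.252, 0.195 and 0.184 CPM in CUMS libraries, against 0.111, 0.289, 0.179 and 0.238 CPM in control libraries. It was called (4.51 ± 1.14, adjusted p = 0.0164) and had a log2 fold of 0.02 without CUMS library 1 (adjusted p = 0.995). The call was also lost without control library 1 (0.0573) or 4 (0.0515), with the replicate number as a block and with limma-voom. Ltf and Dmbt1, secreted proteins of glandular epithelium, had 0.184 to 1.20 and 0.0487 to 1.06 CPM in CUMS libraries, against 77.8 and 66.6 CPM in control library 3 and at most 1.19 and 0.238 CPM in the other controls. Without control library 3 neither passed (adjusted p = 0.926 and 0.704).

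Hsd3b1 and Cyp11a1, enzymes that make steroids in ovary and adrenal, separated the arms without such a library. Hsd3b1 (chr3:98852194-98859794, minus strand) had 3.92, 3.84, 3.65 and 3.31 CPM in CUMS libraries, against 0 in all 4 control libraries. Both are abundant in ovaries of the same set, where Hsd3b1 averaged 6748 ± 898 CPM in CUMS and 6949 ± 797 CPM in control libraries. Whether RNA of other tissue, carried over at dissection or library preparation, gave the pituitary counts was not tested. With 3 counts as the limit for a library at 0, which is at most 0.179 CPM here, it was at least 20.6-fold higher in CUMS libraries. Cyp11a1 had 2.46, 2.26, 1.70 and 3.44 CPM in CUMS libraries, against 0.222, 0.231, 0.298 and 0.358 CPM in control libraries (3.13 ± 0.52, adjusted p = 0.000316). In the other sets Hsd3b1 had 3.79 to 5.98 CPM in CUMS and 2.44 to 4.25 CPM in control libraries of 2M-8W, 1.70 to 7.23 CPM in CUMS and 1.16 to 3.80 CPM in control libraries of 2M-12W, and 0 in all 8 libraries of 6M-12W. The sum of 14 ovary transcripts was 10.2 ± 0.889 CPM in CUMS and 4.12 ± 0.388 CPM in control pituitaries (SD, n = 4 each; two-sided exact permutation test, p = 0.0286, the smallest 4 against 4 can give). Without those 2 genes it was 4.10 ± 0.575 and 3.85 ± 0.370 CPM (exact permutation p = 0.457). The sum of all genes at least 100 times more abundant in ovary was 78.0 ± 12.1 CPM in CUMS and 59.0 ± 2.73 CPM in control pituitaries without them (exact permutation p = 0.0286). When genes so abundant in ovary were left out of the fit, 812 genes passed in place of 799. The limit for a library at 0 covers counting error only.

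**Figure D5:**
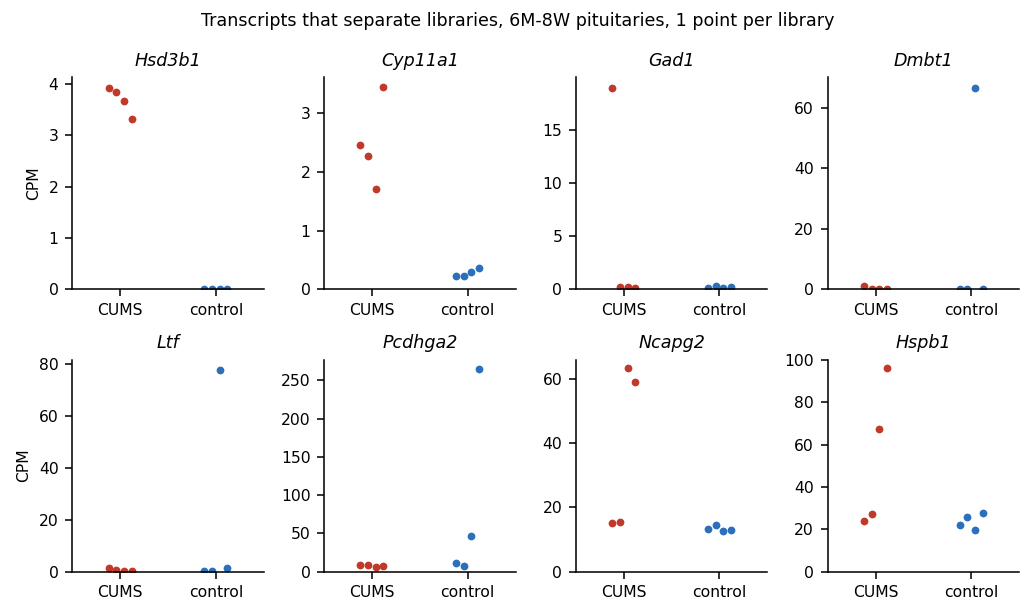
CPM of 8 genes in each of the 4 CUMS (left) and 4 control (right) pituitaries of the 6M-8W set, 1 point per library. Gad1 reaches 18.9 CPM in CUMS library 1, Dmbt1 and Ltf 66.6 and 77.8 CPM in control library 3, Pcdhga2 264 CPM in control library 4, Ncapg2 and Hspb1 are high in CUMS libraries 3 and 4, and Hsd3b1 and Cyp11a1 separate all libraries of the arms.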

How the data were processed

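Pituitary RNA was sequenced from the 8 groups of 4 libraries above. Per the labels' protocols, the extraction used chloroform and the NEBNext Ultra II kit gave the libraries. The authors deposited raw read counts per gene for 34745 genes and, beside them, FPKM values (counts scaled by gene length and library total), which were used in no comparison. All 126 value columns were assigned to samples. The aligner, counter, strand setting and annotation version are not stated in the labels, so reads of overlapping genes on opposite strands may not be told apart. Positions in the deposited tables are on GRCm38.

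The 32 pituitary libraries were fitted in 1 edgeR 4.0.16 model (R 4.3.3) with 1 coefficient per group, TMM factors, filterByExpr (17001 genes kept), the quasi-likelihood F test and Benjamini-Hochberg adjustment over all genes kept, with 24 residual degrees of freedom, a biological coefficient of variation of 0.158 and a threshold of 0.05. Folds are CUMS over control on the log2 scale, each with an SE of its absolute value over √F. The 31 ovary libraries were fitted apart. In simulated data for this comparison (16880 genes), 97% of genes changed 2 times and 100% of those changed 4 times were recovered, and 4.37% of the 206 calls were false. Simulated counts took the spread of the trend at each gene's level, with no outlying libraries, and changes were put only in genes above a minimum level. These rates hold for that setting and were not measured for the real libraries, where single libraries stood out. No 2 libraries of an arm agreed within counting noise (chi-square per degree of freedom 9.96 or more).

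Named genes were a core list of pituitary, glucocorticoid and clock genes, the 10 highest and 10 lowest folds among called genes at a mean log2 CPM of 1 or more with arms that did not overlap (predicted genes left out), the 10 smallest p-values, the 4 smallest p-values past the threshold in each list, and the 5 highest and 5 lowest in each difference between sets. Other list members were named to complete a count and were chosen after their values were seen. Some genes that the rule would name are left out of the text. The comparison, lists and rule were chosen with earlier results of these data known. Alternatives were RLE factors, totals without mitochondrial and the 10 most abundant genes, no filter, a fit without ovary-abundant genes, the replicate number as a block, limma 3.58.1 voom with quality weights, DESeq2 1.42.0, the 8 libraries alone, each library left out in turn, and, added after seeing the data, CUMS library 1 and control library 3 left out together.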

Additional observations from a re-analysis of the deposited data

Results flagged for a closer look

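In groups of 4 libraries, 13 of 198 arms of named genes held a library far from the other 3, where chance gives about 5 in 100 (5%). In CUMS library 1 these were Gad1 (18.9 CPM, highest), Dmbt1 (1.06 CPM, highest) and Tgfbr3 (123 CPM, lowest). In CUMS library 4 they were Map3k6 (11.4 CPM) and Nars (151 CPM), both highest. In control library 3 they were Dmbt1 (66.6 CPM) and Ltf (77.8 CPM), both highest, and Slc2a13 (64.8 CPM, lowest). In control library 4 they were Pcdhga2 (264 CPM) and Cga (2827 CPM), both highest, and Pcsk2 (257 CPM, lowest). Control library 1 was highest for Zbtb16 (29.5 CPM) and control library 2 for Klf15 (22.2 CPM). Pcdhga2 shares exons with the other genes of its protocadherin cluster, so its counts are uncertain, and without control library 4 it did not pass (-1.49, adjusted p = 0.339).

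The stress effect of 31 named genes differed from the mean effect of the other 3 pituitary sets in edgeR's test of the difference (adjusted p under 0.05, log2 differences below). Some were named by this same difference, so their number describes the choice, and over all genes tested 1.37% differed. Genes on the glucocorticoid list were Fkbp5 (0.83), Zbtb16 (1.6), Map3k6 (1.15), Hif3a (0.66) and Klf15 (0.78). Genes of release and hormone processing were Doc2b (1.82), Syt1 (0.55), Cplx2 (-0.6) and Pam (0.44). Genes of receptors, channels and transporters were Chrna6 (2.33), Thrb (1.17), F2rl1 (-0.69), Scn11a (-1.13), Slc2a13 (1.48), Slc26a1 (1.42) and Atp2a1 (-1.6). Others above the other sets were Nwd2 (2.16), Depdc7 (1.54), Ncapg2 (1.92), Kif18a (1.62), Hspb1 (1.41), Tuba8 (1.3), Cidea (1.18), Cabp1 (1.11), Glul (0.57), Eprs (1.02) and Srxn1 (1.2). Others below them were Pla2g2c (-1.52), Rgs8 (-1.18), Rcor2 (-1.07) and Nol4l (-0.88). Why these effects differ between sets was not tested, and if the sets were handled in separate batches, batch and set cannot be told apart.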

How the results depend on the processing

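Of 102 named genes, 87 passed in 6M-8W pituitary, 57 of them under every one of the 17 alternatives in which they were tested. For Hsd3b1 and Cyp11a1, which are among the 57, these were 16. The fit without ovary-abundant genes left both out. Of the 15 that did not pass, 13 passed under none. Most genes outside the core list were named because they passed, so these counts describe the choice of names. Over all genes tested 4.7% passed. The 799 genes became 824 with RLE factors, 819 with other totals, 672 without a filter, 812 without ovary-abundant genes, 1032 with DESeq2 and 789 in the 8 libraries alone (566 shared). With limma-voom and quality weights 2537 passed. With 1 library left out the count was 436 to 991, and without CUMS library 1 and control library 3 it was 863 (606 shared). Replicate numbers did not pair the libraries (correlations of deviations -0.069, -0.006, -0.046 and 0.033). With the replicate block 895 passed (691 shared), and the 3 differences between sets became 29, 55 and 247.

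The difference from 2M-8W (31 genes) became 234 with voom, 113 with DESeq2, 85 without CUMS library 1 and control library 3, and 9 to 104 with 1 library left out. The difference from 6M-12W (61) became 192 with DESeq2, 92 without those libraries and 27 to 108. The difference from the other 3 sets (233) became 1028 with voom, 452 with DESeq2 and 84 to 397. In 6M-8W ovary 199 became 84 without a filter and 4 to 336 with 1 library left out. The cause of these changes was not tested. Gad1 reversed to -0.034 without CUMS library 1 and control library 3. Dmbt1 reversed to 1.87 without control library 3 and to 0.14 without both, and ranged over -7.49 to 1.87 with 1 library left out. The mitochondrial share and the ovary sum moved by less than the spread between libraries. With 4 libraries a side, a small fold in a gene that varies between libraries may not pass, and genes near 3 counts a library carry little information.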

Other observations

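Brain and epithelial transcripts were looked at in every library, in genes chosen after their values were seen. In CUMS library 1, Gfap, a gene of astrocytes, had 12.6 CPM, against 2.07 to 4.84 CPM in the other CUMS libraries and 2.80 to 4.30 CPM in control libraries. Mobp, a myelin gene, had 8.64 CPM there, against 0.633 to 1.57 CPM in the other CUMS libraries and 1.73 to 3.75 CPM in control libraries. In control library 3 Bpifa1, a secreted airway protein, had 49.2 CPM, against 0.252 to 3.77 CPM in CUMS libraries and 1.5 to 6.48 CPM in the other control libraries. The 10 airway and salivary markers summed to 3.46 to 13.2 CPM in CUMS libraries and 5.49 to 200.0 CPM in control libraries, with Scgb1a1 at 0 in all 8.

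Of 26 motile cilia genes tested, a list added after seeing the data, 1 was higher and 4 were lower past the threshold, beside 2.3% and 2.4% of all genes, with a median log2 fold of -0.23 and summed levels of 233 to 252 CPM in CUMS and 218 to 246 CPM in control libraries. Galanin, encoded by Gal and listed among estrogen-responsive genes, had 75.1, 21.5, 22.5 and 25.4 CPM in CUMS libraries, against 94.3, 70.6, 60.1 and 103 CPM in control libraries. CUMS library 1 lay within the control range and the other 3 below it (log2 fold -1.19 ± 0.54, adjusted p = 0.241).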
